A study of Caenorhabditis elegans with 15 samples.

Results

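RNA recovered with the cap-binding protein IFE-3 was compared with total RNA of the same Caenorhabditis elegans strain. Genes were taken if 3 or more of the 6 libraries compared had 1 TPM or more, which gave 10987 genes of the 46934 in the table. These genes held between 99.5% and 99.7% of the TPM in each of the 6 libraries. TPM are abundances corrected for transcript length, scaled so that each library has the same total.

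IFE-3 and IFE-1 are paralogs of eIF4E, the protein that holds the cap at the start of an mRNA and brings it to the ribosome. Many C. elegans mRNAs receive a spliced leader and with it a trimethylated cap, while others keep the monomethylated cap common to eukaryotes. In earlier biochemical work IFE-3 bound the monomethylated cap, and IFE-1 bound both kinds. Some RNAs, such as those of mitochondria, carry no cap.

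Worms of strain KX155 carry 2 tags made by CRISPR, mKate at ife-1 on chromosome III and GFP at ife-3 on chromosome V. Whole worms grown for 3 days at 20 °C were crushed, and GFP::IFE-3 was drawn from the extract with GFP trap beads (IFE-3 RIP, 3 libraries). Total RNA of the same strain, in which both tags are thus present too, was measured in 3 libraries. RNA recovered with mKate::IFE-1 on RFP trap beads was measured in another 3 (IFE-1 RIP). Strains LP306 and LP307 express GFP::PH and mKate::PH from an insertion on chromosome II, and gave 3 GFP control RIP and 3 mKate control RIP libraries. The series design states that the tag-only RIPs were set aside by the submitters because of their poor mRNA content, and they serve here as background only. The labels call replicates biological and give no stage or sex. They do not state whether replicates came from separate cultures, so p-values measure the spread between these libraries. The labels name GFP pulldown and lysate as batches, so batch and group cannot be told apart for IFE-3 RIP against total RNA.

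The table gives WormBase IDs, and 0 of them matched the gene table used here. Gene symbols, classes, sequences and cell type markers were therefore not used, and the tagged genes were not checked. Below, genes are grouped by level and by the number in the ID, which is used as a label and not read as a name or a position. In whole worms, fewer cells of a type and less RNA per cell cannot be told apart.

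IFE-3 RIP differed from total RNA in both directions. In IFE-3 RIP 742 (6.75%) of 10987 genes were higher and 723 (6.58%) lower, at an adjusted p under 0.05 with limma. In each called gene the IFE-3 RIP and total RNA values were fully apart, as they were in 33.7% of all genes tested. Higher genes had a median log2 fold change of 0.79 and lower genes one of -0.53, against 0.02 over all genes tested. A difference of 2-fold or more was reached by 224 of the higher and 43 of the lower genes, and one of 4-fold or more by 62 and 16. Genes with identical values are each counted here, and 30 of the higher and 15 of the lower genes are of this kind. A single set of 11 such genes, at a log2 fold change of -3.78, is among the lower genes of 4-fold or more. Differences below 1.5-fold made up 137 of the higher and 450 of the lower genes. Fold changes compare log2(scaled TPM + 1), where scaled TPM are TPM divided by a factor per library, and the added 1 makes the change of low genes look smaller. No total RNA library had a value above 0 for 38 of the higher genes, and without these the median was 0.77. Conversely, every IFE-3 RIP library lists 2 of the lower genes at 0. Genes at 0 in 1 whole group could pass the selection only through the other group, so their direction is set by it. Among all genes selected, 55 were at 0 in every total RNA library and 2 in every IFE-3 RIP library. The selection used TPM as deposited, whose overall median log2 fold change was 0.27.

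The counts rested on single libraries and on the scaling. Without IFE-3 RIP replicates 1 and 2 the higher genes numbered 354 and 184 and the lower genes 378 and 221. Leaving out IFE-3 RIP replicate 3 gave more higher genes, 1046, and fewer lower genes, 630. Without total RNA replicates 1, 2 and 3 the higher genes numbered 213, 258 and 308 and the lower genes 217, 237 and 415. Unscaled TPM shifted the overall median to 0.27 on the log2 scale and gave 2707 increases and 177 decreases. Increases then made up 93.9% of the calls, compared with 50.6% after scaling.

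**Figure D1:**
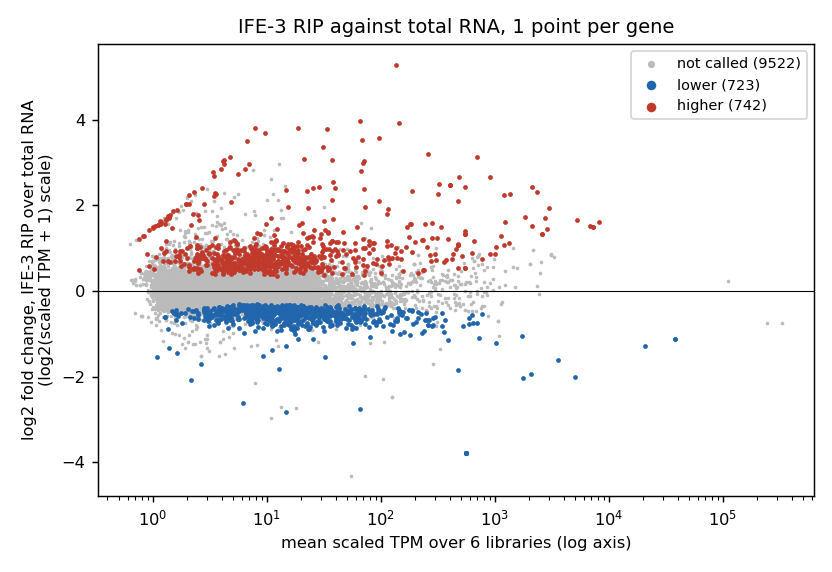
Each point is 1 of 10987 genes, with its mean scaled TPM over the 6 libraries (log axis) and its log2 fold change of IFE-3 RIP over total RNA. Red points are the 742 genes called higher and blue points the 723 called lower. Called genes reach 5.28 upward and -3.78 downward, and 450 of the lower genes differ by less than 1.5-fold.

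The higher genes took a larger part of the RNA in IFE-3 RIP than in any other group. Their share of the TPM was 16.7, 14.7 and 12.4% in replicates 1, 2 and 3 of IFE-3 RIP. In total RNA it was 4.24, 4.11 and 4.21%. Every IFE-3 RIP library thus lay far above every total RNA library, as follows from the way the genes were chosen. Shares here and below are of TPM as deposited, while calls use scaled TPM. The median log2 fold change over all genes tested was 0.27 as deposited and 0.02 after scaling, so shares lean towards IFE-3 RIP. For all 742 higher genes the mean was 7.29 ± 2.04% for GFP control RIP, 6.32 ± 0.523% for mKate control RIP and 9.28 ± 1.58% for IFE-1 RIP (SD, n = 3 each). Among these 742 genes, 30 have ID numbers from 1875 to 1941, a stretch described below. The 65 tested genes of this stretch averaged 10.1% in IFE-3 RIP, 3.34% in total RNA and 2.78% in IFE-1 RIP. They averaged 3.81% in GFP control RIP and 1.69% in mKate control RIP. How far the lead of IFE-3 RIP holds for the higher genes outside this stretch was not tested. The lower genes held 7.35, 8.45 and 11.2% in replicates 1, 2 and 3 of IFE-3 RIP, against 14.4, 17.0 and 15.9% in total RNA. For these genes the other pull-downs were close to IFE-3 RIP, with 10.9 ± 2.54% for GFP control RIP, 8.73 ± 0.424% for mKate control RIP and 10.0 ± 1.98% for IFE-1 RIP (SD, n = 3 each).

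The GFP trap was also used on worms whose GFP carries no eIF4E. In this GFP control RIP the median log2 ratio to total RNA was 0.24 over the genes called higher and -0.47 over those called lower, against -0.05 over all genes. Of the higher genes, 348 (46.9%) had every IFE-3 RIP library above every GFP control RIP library, as had 13% of all genes. Of the lower genes, 71 (9.82%) had every IFE-3 RIP library below every GFP control RIP library, against 5.35% of all genes. The median log2 ratio of IFE-3 RIP to GFP control RIP was 0.56 over the genes called higher, -0.09 over those called lower and 0.05 over all genes. These ratios share libraries with the comparison that chose the genes. The lower genes were thus nearly as low in the control pull-down as in IFE-3 RIP, and the part of the beads in either direction was not tested.

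In IFE-1 RIP the median log2 ratio to the same total RNA libraries was 0.40 for the genes higher in IFE-3 RIP and -0.52 for the genes lower in it. Of the lower genes, 0% lay above the total RNA mean in IFE-1 RIP and 3.04% did so in GFP control RIP. Of the higher genes, 76.1% did in IFE-1 RIP, 72.0% in GFP control RIP and 80.6% in mKate control RIP. Over all genes these shares were 45.8%, 44.7% and 44.8%. All these values use the same total RNA libraries.

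Calls were more frequent among genes of higher level. Of 2007 genes with a mean under 2 scaled TPM, 51 (2.54%) were called higher and 16 (0.797%) lower. Of 5480 genes from 2 to 10, 295 (5.38%) were higher and 217 (3.96%) lower. Lower genes outnumbered higher ones among the 3001 genes from 10 to 100, with 411 (13.7%) against 297 (9.90%). Of 442 genes from 100 to 1000, 77 (17.4%) were higher and 70 (15.8%) lower. Both counts include sets of genes with identical values, among them the set of WBGene00014621 on the lower side. The 57 genes at 1000 and over held the highest share of increases, with 22 (38.6%) higher and 9 (15.8%) lower. Of these, 17 genes with 12 of the increases have ID numbers from 1875 to 1941, a stretch described below. The other 40 had 10 increases and 9 decreases, with a median log2 fold change of 0.13 in IFE-3 RIP and -0.36 in GFP control RIP. Over all 57 genes the median log2 fold change was 0.68, while GFP control RIP gave a median of -0.85 against total RNA. The medians of the other classes lay between -0.01 and 0.06 in IFE-3 RIP. Replicates of IFE-3 RIP were more spread than those of total RNA, with a median SD over 3 libraries of 0.20 against 0.15 on the log2 scale. It was 0.18 for IFE-1 RIP and 0.37 for GFP control RIP. The wide spread of GFP control RIP limits how far IFE-3 RIP can be told apart from it.

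The most abundant RNAs did not pass the test. More than any others, 3 genes filled the libraries, with 53.4 ± 2.26% of all TPM for IFE-3 RIP and 63.5 ± 0.935% for total RNA (SD, n = 3 each). Without gene classes it is not known here whether these genes, or those next in level, are mRNAs. The highest gene had 221365, 277133 and 233783 scaled TPM in the IFE-3 RIP libraries, and 402030, 435265 and 400425 in total RNA. All IFE-3 RIP values lay below all total RNA values, and in GFP control RIP the gene was lower still, at 179128, 168784 and 183947. Its log2 fold change was -0.75 ± 0.29 SE (limma adjusted p = 0.126), and that of the second was -0.74 ± 0.29 SE (limma adjusted p = 0.126). For the third it was 0.23 ± 0.32 SE (limma adjusted p = 0.694), and its groups overlapped.

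Below these, called genes were frequent on both sides. The highest values called lower were those of a pair of genes with identical values. They had 18144, 23513 and 30662 scaled TPM in IFE-3 RIP, compared with 45890, 61599 and 47563 in total RNA. Their log2 fold change was -1.11 ± 0.28 SE (limma adjusted p = 0.0365), and they stood at 11851, 20802 and 28827 in GFP control RIP. The highest gene called higher stood at 11188, 14122 and 11622 in IFE-3 RIP and 3523, 5565 and 3338 in total RNA. Its log2 fold change was 1.61 ± 0.27 SE (limma adjusted p = 0.00991), and in GFP control RIP it was at 2700, 6234 and 2562. Among the top 50 genes, 20 were called higher and 8 lower, and the median log2 fold change was 0.81.

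Some stretches of neighbouring ID numbers held many calls in 1 direction. The numbers were cut into blocks of 100, and 218 blocks held at least 20 tested genes. The median block had 5.77% higher and 5.41% lower genes. Blocks are described by their counts, without a test, because they were picked for those counts. The highest shares of increases were found in the blocks that start at 77401 (11 of 27), 45101 (17 of 52), 44901 (15 of 49), 1901 (19 of 74) and 5001 (6 of 24). The highest shares of decreases were found at 77401 (10 of 27), 1201 (11 of 37), 301 (6 of 26), 101 (14 of 66) and 3901 (13 of 67).

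**Figure D2:**
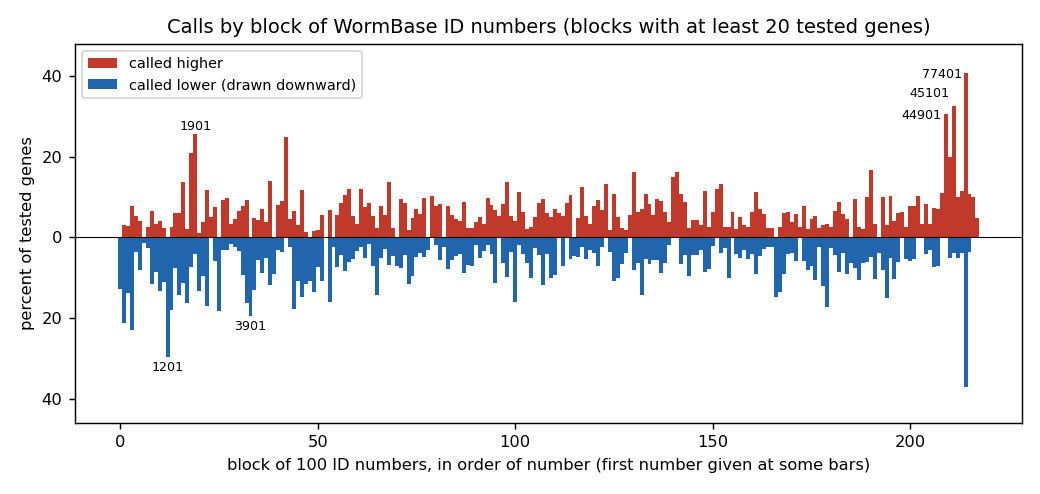
Bars give, for each of 218 blocks of 100 WormBase ID numbers in order, the percent of tested genes called higher (upward) or lower (downward) in IFE-3 RIP. The blocks starting at 1901, 44901, 45101 and 77401 stand out upward with 25.7%, 30.6%, 32.7% and 40.7%, and those at 1201 and 77401 downward with 29.7% and 37.0%.

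The stretch from number 1875 to 1941 held more increases than any of the blocks named above. It was bounded, after the values were seen, by the first and the last gene called at least 2-fold higher between 1801 and 2000. Of its 65 tested genes, 30 (46.2%) were higher in IFE-3 RIP, all of them at least 2-fold, and 0 were lower (limma, adjusted p under 0.05). The log2 fold change was above 0 in 63 of 65, with a median of 0.83 and a range from -0.06 to 2.48. In the 76 other genes between 1801 and 2000, 3 were higher and 8 were lower, with a median of 0.03. The bounds leave no gene called at least 2-fold higher among these, so this contrast is partly set by the choice. Genes of the stretch were abundant, with a median of 476 and a highest mean of 7247 scaled TPM. Values were identical in every library for 35 of the 65 genes, so the stretch held 44 distinct sets of values, 21 of them called higher. Values of single genes in such a set are uncertain, since the table does not tell them apart.

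In the other pull-downs the median of the stretch lay below total RNA. Its genes held 12.4, 10.4 and 7.58% of the TPM in IFE-3 RIP replicates 1, 2 and 3. In total RNA they held 3.37, 3.11 and 3.53%. The groups did not overlap, and replicate 3 was the lowest of IFE-3 RIP. GFP control RIP stood at 2.14, 2.85 and 6.45%, so that its replicate 3 came near to IFE-3 RIP replicate 3. The mean was 2.78 ± 0.978% for IFE-1 RIP and 1.69 ± 0.581% for mKate control RIP (SD, n = 3 each). Against total RNA the median log2 ratio was -0.35 for GFP control RIP, -0.42 for IFE-1 RIP and -1.63 for mKate control RIP. In these groups 20, 14 and 3 of the 65 genes lay above the total RNA mean, as did 44.7%, 45.8% and 44.8% of all genes. Every IFE-3 RIP library lay above every GFP control RIP library in 33 of 65 genes, against 13% of all genes. The stretch was bounded by values of the same IFE-3 RIP and total RNA libraries.

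By library, the median log2 difference of the stretch from the total RNA mean was 1.09, 0.96 and 0.62 in IFE-3 RIP and -1.02, -0.76 and 0.56 in GFP control RIP. The highest values in the stretch were shared by a pair of identical genes. They had 13072, 12828 and 6562 scaled TPM in IFE-3 RIP, compared with 3506, 3675 and 3837 in total RNA. Their log2 fold change was 1.50 ± 0.31 SE (limma adjusted p = 0.0193), and they stood at 1151, 1796 and 3530 in GFP control RIP. All IFE-3 RIP values lay above both other groups, and replicate 3 of GFP control RIP fell within the range of total RNA. The number of genes of the stretch called higher was 31 without IFE-3 RIP replicate 3 and 48 with the 6 libraries of the comparison alone. It fell to 11 and 8 without IFE-3 RIP replicates 1 and 2, to 8, 10 and 11 without total RNA replicates 1, 2 and 3, to 13 when low genes were kept and to 6 when all 15 libraries were fitted together. In each of these fits 0 genes were called lower and between 62 and 64 of the 65 had a log2 fold change above 0.

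**Figure D3:**
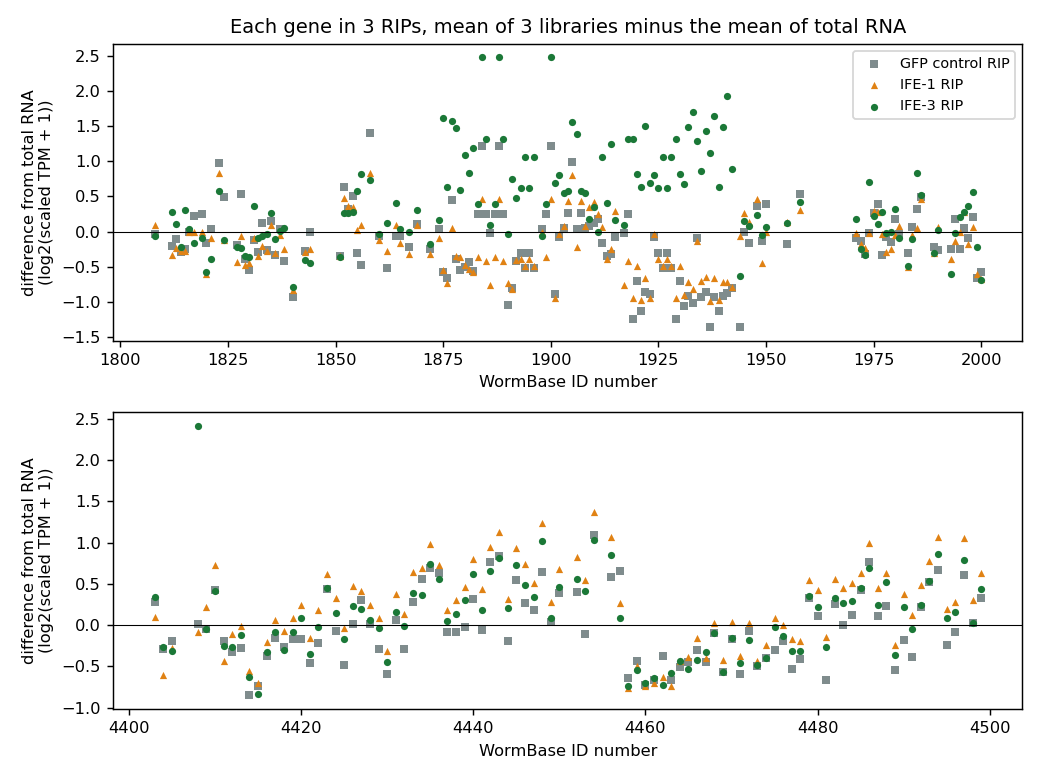
Each tested gene is placed by its WormBase ID number (upper panel 1800 to 2000, lower panel 4400 to 4500), and its height is the mean of 3 libraries minus the mean of total RNA on the log2(scaled TPM + 1) scale. Green circles are IFE-3 RIP, orange triangles IFE-1 RIP and grey squares GFP control RIP. Between 1875 and 1941 most green points lie above the others, with medians of 0.83, -0.42 and -0.35 in the same order, while in the lower panel the medians of all 3 pull-downs lie above 0 from 4433 to 4457 and below 0 from 4458 to 4478.

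Runs of neighbouring tested genes with 1 sign were then taken by their length, so the common sign of a run is set by that choice and is not a result. A run of 23 genes above 0, from 4433 to 4457, had a median log2 fold change of 0.47, and 7 of its genes were called higher. It was followed by the longest run below 0, 21 genes from 4458 to 4478, with a median of -0.43 and 9 genes called lower. The median level was 514 scaled TPM in the first run and 61.8 in the second, which held genes of unlike level. Its genes from 4458 to 4468 stood at 61.8 scaled TPM or less, and those from 4469 to 4478 at 364 to 1123. All tested genes from 4458 to 4465 were called lower, and after these only 4469 was. The abundant part of the second run was thus nearly without calls. For the first run the medians against total RNA were 0.69 for IFE-1 RIP, 0.39 for GFP control RIP and -0.38 for mKate control RIP, the last of these on the other side of 0. For the second run they were -0.39, -0.44 and -0.95. Every IFE-3 RIP library lay above every GFP control RIP library in 0 of the 23 genes. With TPM as deposited the median of the second run was -0.10 and 8 of its 21 genes lay above 0.

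By library, the median difference of the first run from the total RNA mean was 0.28, 0.41 and 0.68 in IFE-3 RIP and -0.16, 0.12 and 1.12 in GFP control RIP. For the second run it was -0.57, -0.34 and -0.45 in IFE-3 RIP and -0.80, -0.28 and -0.27 in GFP control RIP. IFE-3 RIP and GFP control RIP thus overlapped in both runs. When all 15 libraries were fitted together, 0 genes of the first run and 2 of the second were called by limma, against 7 and 9.

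The numbers from 44901 to 45000 and from 45101 to 45200 held increases, and IFE-1 RIP lay above total RNA there too. In the first of these blocks 15 of 49 genes were higher and 0 lower, and the median log2 fold change was 0.76. Against the same total RNA libraries the median was 1.21 for IFE-1 RIP and -0.04 for GFP control RIP. In the second, 17 of 52 genes were higher and 2 lower, with a median of 0.70, and the medians were 1.11 in IFE-1 RIP and -0.46 in GFP control RIP. Within these blocks lay a run of 20 genes from 44931 to 44955, with a median of 1.45 and 10 called higher, and a run of 18 genes from 45139 to 45161, of which 10 were called higher, both again bounded by the sign. The mKate control RIP, which carries the tag of IFE-1 without an eIF4E, had medians of 1.10 and 0.70 against total RNA in these runs. The mean share of the TPM held by the 20 genes was 0.554 ± 0.0691% for IFE-3 RIP, 0.174 ± 0.0245% for total RNA, 0.400 ± 0.140% for GFP control RIP, 0.479 ± 0.0950% for mKate control RIP and 0.756 ± 0.271% for IFE-1 RIP (SD, n = 3 each). GFP control RIP lay between total RNA and IFE-3 RIP in its mean, and its highest library overlapped with the lowest of IFE-3 RIP.

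**Figure D4:**
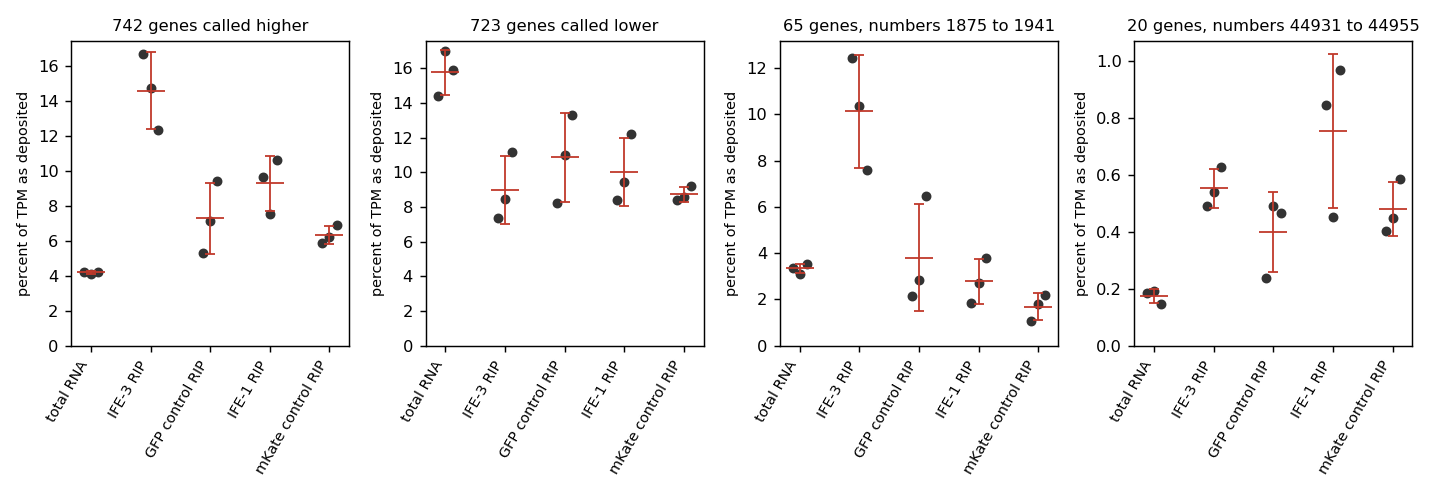
Points give the percent of the deposited TPM held by 4 sets of genes in each of the 15 libraries, and red marks give the mean ± SD of 3 libraries per group. The genes called higher hold more in IFE-3 RIP than in all other groups, and the genes called lower hold less in every pull-down than in total RNA. The 65 genes numbered 1875 to 1941 average 10.1% in IFE-3 RIP and at most 3.81% elsewhere, while the 20 genes numbered 44931 to 44955 average most in IFE-1 RIP, at 0.756%.

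The block from 77401 to 77500 held calls in both directions, but few distinct ones. Its 27 tested genes had 10 distinct sets of values. The 11 genes called higher shared 3 sets and the 10 called lower shared 1 set. Those 10 genes belong to the set of WBGene00014621, whose values are given below. Over all genes tested, 148 genes fell into 61 sets with identical values, and the 742 higher and 723 lower genes held 721 and 711 distinct sets.

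Blocks with decreases moved less. In the block from 1201 to 1300, 11 of 37 genes were lower and 0 higher, with a median log2 fold change of -0.19. In the block from 101 to 200, 14 of 66 were lower and 2 higher, with a median of -0.17, and in that from 3901 to 4000, 13 of 67 were lower and 0 higher, with a median of -0.16. With TPM as deposited these medians turned to 0.07, 0.10 and 0.14. IFE-1 RIP gave medians of -0.27, -0.16 and -0.15, and GFP control RIP gave -0.21, -0.05 and -0.17. The control median was thus nearer to 0 than that of IFE-3 RIP in the block from 101 to 200. The block from 301 to 400, with 6 of 26 genes lower and 2 higher, had a median of -0.02 in IFE-3 RIP. Over 17 alternatives its median ranged from -0.17 to 0.20.

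Genes with high ID numbers were more often higher. Of 1297 tested genes numbered above 30000, 146 (11.3%) were called higher and 44 (3.39%) lower. In the block from 77401 to 77500 alone, 11 of these higher genes shared 3 sets of values and 10 of the lower genes shared 1 set. Up to 10000, 251 of 4214 (5.96%) were higher and 370 (8.78%) lower. From 10001 to 20000 these were 263 (6.36%) and 216 (5.22%) of 4136, and from 20001 to 30000 they were 82 (6.12%) and 93 (6.94%) of 1340. The genes above 30000 were of lower level, with a median of 3.16 against 7.16 scaled TPM up to 10000. Among genes from 10 to 100 scaled TPM the shares were 21.1% higher and 3.29% lower above 30000, against 7.64% and 16.7% up to 10000. The median log2 ratio to total RNA above 30000 was 0.23 for IFE-3 RIP, 0.28 for IFE-1 RIP and 0.14 for GFP control RIP. In the control it was above 0 only for genes under 10 scaled TPM. From 10 to 100 it was -0.07 for GFP control RIP and 0.26 for IFE-3 RIP, from 100 to 1000 it was -1.27 and 0.17, and at 1000 and over it was -0.52 and 0.10.

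Single genes were taken by fold change, among called genes whose groups do not overlap and whose higher group averaged 10 scaled TPM or more. This left 464 higher and 524 lower genes, from which 2 IDs in each direction were taken. WBGene00045160 had 250, 314 and 212 scaled TPM in IFE-3 RIP, against 0, 12.4 and 18.3 in total RNA. Its log2 fold change was 5.28 ± 1.00 SE (limma adjusted p = 0.0140). Every GFP control RIP library lists it at 0, and IFE-1 RIP had 320, 177 and 61.1. With 1 library left out its log2 fold change ranged from 4.00, without total RNA replicate 1, to 6.06, without total RNA replicate 3, and with pseudocounts of 0.1 and 5 it was 6.45 and 4.30. All IFE-3 RIP libraries were thus above total RNA and GFP control RIP, while IFE-1 RIP overlapped with IFE-3 RIP. Its call was lost with all 15 libraries (adjusted p = 0.0611 by limma) and without IFE-3 RIP replicate 2 (adjusted p = 0.0550 by limma).

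WBGene00044974 had 140, 89.0 and 121 scaled TPM in IFE-3 RIP, against 8.01, 0 and 38.7 in total RNA. Its values in GFP control RIP were 28.1, 25.9 and 58.5. All IFE-3 RIP libraries lay above total RNA and GFP control RIP. IFE-1 RIP had 170, 78.0 and 154 and overlapped with IFE-3 RIP, and mKate control RIP had 70.5, 30.0 and 52.4. The log2 fold change of IFE-3 RIP over total RNA was 3.98 ± 1.04 SE (limma adjusted p = 0.0392). In 8 of 17 other fits the gene was not called, among them 5 of the 6 with a library left out. The log2 fold change was 2.61 without total RNA replicate 2 and 5.20 without total RNA replicate 3.

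WBGene00014621 has the same values as 10 other genes. Its values were 19.6, 82.4 and 195 scaled TPM in IFE-3 RIP, against 895, 1496 and 660 in total RNA. The log2 fold change was -3.78 ± 0.80 SE (limma adjusted p = 0.0197), and it ranged from -4.52 without IFE-3 RIP replicate 3 to -2.89 without IFE-3 RIP replicate 1. The gene had 10.9, 10.9 and 24.6 in GFP control RIP and 49.8, 55.5 and 197 in IFE-1 RIP, so all pull-downs lay below all total RNA libraries. WBGene00045117 had 1.78, 5.86 and 1.65 scaled TPM in IFE-3 RIP, against 24.9, 22.9 and 30.9 in total RNA. Its log2 fold change was -2.82 ± 0.68 SE (limma adjusted p = 0.0295). Every GFP control RIP library lists it at 0, and IFE-1 RIP ranged from 2.01 to 23.8. Of 17 other fits, 4 did not call WBGene00014621 and 8 did not call WBGene00045117, among them each fit with a library left out for the second, and no sign changed.

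**Figure D5:**
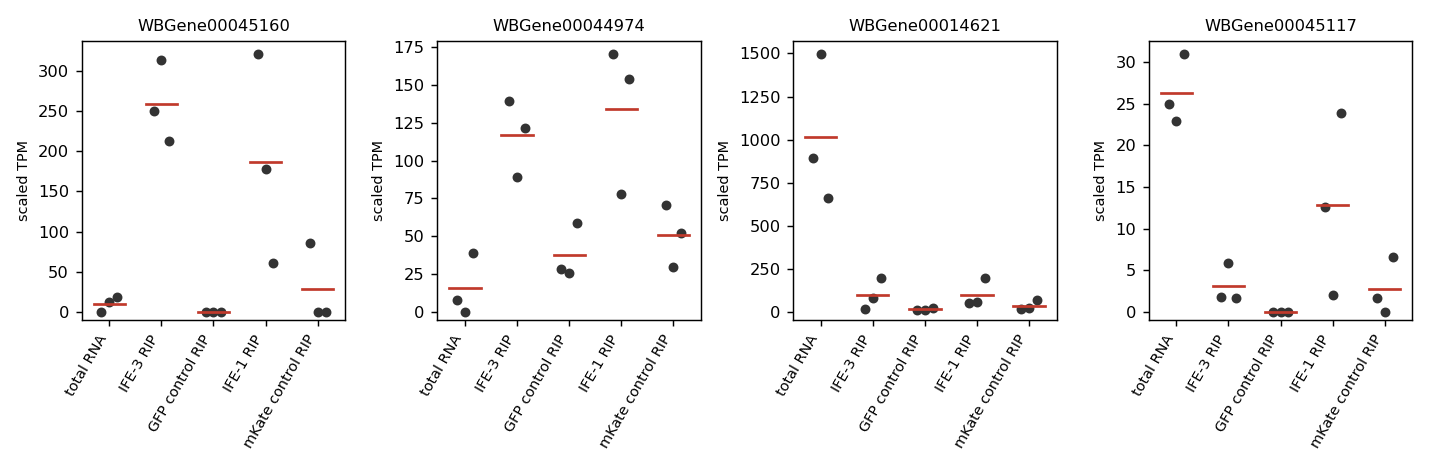
Points give scaled TPM in each of the 15 libraries for the 4 genes named by ID, and red lines give the mean of 3 libraries per group, each panel with its own axis. WBGene00045160 and WBGene00044974 are high in IFE-3 RIP and IFE-1 RIP, and WBGene00014621 and WBGene00045117 are high in total RNA.

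At the edge of the selection, 752 genes reached 1 TPM in exactly 3 of the 6 libraries, with a median mean of 1.09 TPM. Outside it, 970 genes reached it in 2, with a median mean of 0.826 TPM. Among the genes selected, 220 reached 1 TPM in every IFE-3 RIP library and in no total RNA library, and 12 did so the other way. Each of these passed only through the group in which it is higher, so its direction is set by the selection.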

How the data were processed

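The authors deposited TPM values per gene for 15 libraries. Tools listed in the submitters' processing notes, with no role given, are R 4.4.1, kallisto 0.48.0 and DESeq2 1.34.0, and the build is WBcel235. Per the labels' protocols, libraries were depleted of rRNA and not strand-specific, so a gene and its antisense partner cannot be told apart. TPM keeps no depth, so depth is unknown and no counting interval or count test was possible.

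Here, TPM were divided by a median-of-ratios factor per library. The genes selected were compared as log2(scaled TPM + 1) by limma 3.58.1 (R 4.3.3, mean-variance trend, two-sided, Benjamini-Hochberg over 10987 genes), in 1 fit with the 3 IFE-1 RIP libraries for a common estimate of the spread. Printed levels use factors over all 15 libraries. The selection, the blocks and the alternatives were chosen with earlier results of these data known. The gene lists, the marker lists, the start-site sequences and the scaling over protein-coding genes need gene symbols or classes and were not used. The rule for named genes was kept without its symbol clause.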

Additional observations from a re-analysis of the deposited data

How the results depend on the processing

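The calls in both directions kept within 1.5 times of 742 higher and 723 lower genes with the 6 libraries alone (529 and 501), quantile normalization, pseudocounts of 0.1 and 5, a filter at 5 TPM, no mean-variance trend and identical genes counted once, which was chosen after seeing the data. With TPM as deposited there were 2707 higher and 177 lower genes, with library weights 2471 and 2126, with all 15 libraries 225 and 149 and without a filter on low values, where 25326 genes were tested, 283 and 434. Leaving out 1 library gave 184 to 1046 higher and 217 to 630 lower genes. With the replicate number as a block there were 1184 higher and 1115 lower genes. Deviations of same-numbered IFE-3 RIP and total RNA libraries correlated by 0.0544, 0.128 and 0.0963, each above those of unlike number, which is a hint from the data that the numbers pair the libraries. The labels do not state such a pairing, and the hint did not meet the limit of 0.1 in all pairs, so the main counts have no block. The cause of these differences was not tested. The median of the stretch from 1875 to 1941 ranged from 0.60 to 1.16 over 17 alternatives. No fold change of a gene named by ID changed sign. Scaling over protein-coding genes was not run, since classes could not be assigned. The spread of 3 libraries and the unknown depth limit what could be called.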
